A study of Homo sapiens with 5 samples.

Results

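The 10 genes described here encode enzymes that cut collagen and other matrix proteins at the cell surface, and the proteins that restrain or position those enzymes. They are the matrix metalloproteinases MMP1, MMP2, MMP9 and MMP14, the tissue inhibitors of metalloproteinases TIMP1, TIMP2 and TIMP3, the urokinase plasminogen activator PLAU and its receptor PLAUR, and basigin (BSG, also called EMMPRIN or CD147). They were chosen by name, as a functional group, and all 10 were found among the 27189 genes of the deposited tables by an exact match of the gene symbol.

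Human fibrosarcoma HT1080 cells, an established tumour line of connective tissue that is commonly used to study invasion, had been embedded in rat-tail type I collagen at 2 mg/ml for 24 h. The labels name no genetic change to the line. The 5 conditions were LD (10 cells/mm3, no cytokine), IL-6 (10 cells/mm3 with recombinant interleukin 6), IL-8 (10 cells/mm3 with recombinant interleukin 8), RM (10 cells/mm3 with IL-6 and IL-8 together at a ratio of 5:2) and HD (50 cells/mm3, no added cytokine). Each was sequenced as 1 library, so the data hold no replicate spread and no test between conditions was possible. Values are therefore given with the reads behind them and with exact 95% intervals, which cover the counting of reads only and not the variation between cultures or amplifications.

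In fibrosarcoma cells the members form a chain at the cell surface. MMP14, a membrane-anchored enzyme, cleaves fibrillar collagen directly and activates the secreted proform of MMP2, a gelatinase, and TIMP2 has a dual role in that step because it bridges MMP14 to pro-MMP2 at a low level and blocks MMP14 when it is abundant. MMP1 is the interstitial collagenase and MMP9 a second gelatinase. PLAU converts plasminogen to plasmin, a broad protease, and PLAUR holds PLAU on the membrane. BSG is a membrane glycoprotein that was first described as an inducer of metalloproteinases and also chaperones the lactate transporters SLC16A1 and SLC16A3.

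The libraries differed in depth and 1 of them stood apart. Total read counts ranged from 5096134 to 7118545 in the 4 libraries at low density and came to 926376 in HD. The ribosomal RNA entry RNA5-8S5 took 76.9 to 79.6% of reads at low density and 51.5% in HD, leaving between 1100967 and 1645539 reads on all other genes at low density and 449661 in HD. A count of 3 reads, taken as the floor of detection, corresponded to 1.82 per 1000000 of those remaining reads in LD and to 6.67 in HD. HD also held reads on genes that fibrosarcoma cells are not known to use. Of 386 olfactory receptor genes, 14 to 37 had a read at low density and 240 had one in HD, where their median level was 4.73 TPM (transcripts per 1000000, reads corrected for transcript length and rescaled to 1000000 per library). The 3 blood markers examined (PTPRC, CD3E, HBB) all had reads in HD, with a summed level of 192 TPM against 0 to 1.30 TPM at low density, and all 3 endothelial markers were present at 48.3 TPM against 0.48 to 1.08 TPM. The 8 mesenchymal markers listed for a fibrosarcoma summed to between 4597 and 6993 TPM at low density and to 955 TPM in HD, and THY1 was at 0 in the IL-6, IL-8 and RM libraries. Epithelial markers summed to at most 28.5 TPM at low density, where EPCAM and KRT5 were at 0 and KRT19 was most of the rest, and to 58.9 TPM in HD. One label names the cells epithelial and another fibrosarcoma, and the second is followed here. In LD most of the mesenchymal sum was VIM (3676 TPM) and LGALS1 (2746 TPM). The epithelial marker KRT19 (27.6 TPM) was near the mesenchymal marker CDH2 (31.2 TPM) there. The other epithelial markers in LD were EPCAM, CDH1 and KRT5 at 0 and KRT14 at 0.90 TPM. The paper names HT1080 as human fibrosarcoma cells, and the identity of the cells was not tested beyond these markers. The part of the HD background in the values below was not tested, and the members' HD levels are set beside those of the olfactory receptor genes in the same library.

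Most members were abundant in LD, and the levels of the detected ones were spread over more than 1 order of magnitude. Of the 10, 8 had at least 10 reads in each of the 4 low-density libraries, 5 had at least 10 reads in HD, and MMP1 and MMP9 had at most 3 reads in every library. In LD the order of levels was BSG (366 TPM, interval 343 to 391), TIMP1 (305 TPM, 274 to 338), MMP14 (235 TPM, 222 to 249) and MMP2 (155 TPM, 143 to 167), and these neighbours did not overlap. TIMP2 (104 TPM, 94.7 to 113) and PLAU (90.5 TPM, 80.4 to 102) overlapped each other, PLAUR followed at 66.7 TPM (56.1 to 78.8), and TIMP3 was far below them at 5.93 TPM (4.34 to 7.91). Summed over the 10 genes, the level was 1329 TPM in LD, 1289 with IL-6, 979 with IL-8, 1047 in RM and 373 in HD.

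**Figure D1:**
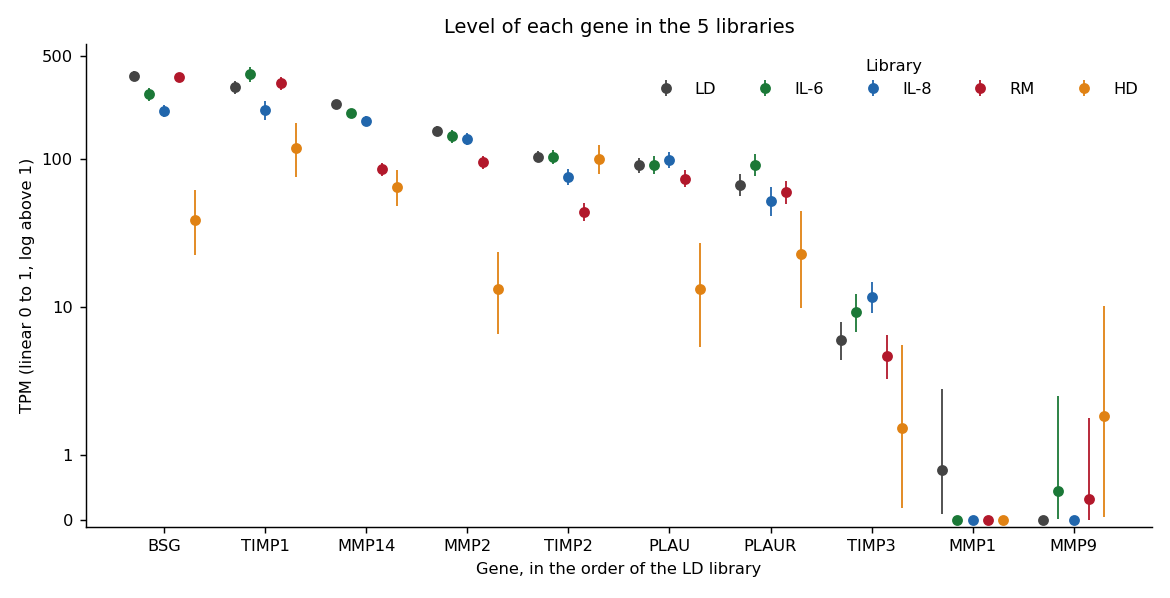
TPM of each member in the 5 libraries, 1 for each condition, on an axis that is linear from 0 to 1 and logarithmic above it. Points are the rescaled TPM and bars are exact 95% intervals of the read count scaled to TPM, covering counting error only; points at 0 have no bar. The HD points lie below the low-density points for 7 of the 8 well-counted members, TIMP2 being the other, and the RM bars of MMP14, MMP2 and TIMP2 lie below those of the other low-density libraries.

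Among the proteases, MMP14 (chromosome 14) was the most abundant in every library but RM, where its interval overlapped that of MMP2. The level of MMP14 was 235 TPM in LD, 203 with IL-6, 181 with IL-8, 85.3 in RM and 64.3 in HD, from 1168, 694, 669, 410 and 54 reads. The 3 libraries without the cytokine mixture or high density were thus the high ones, and RM and HD were low. MMP2 (chromosome 16) was at 155 TPM in LD, 142 with IL-6, 137 with IL-8, 94.7 in RM and 13.1 in HD, from 696, 440, 468, 405 and 11 reads. PLAU (chromosome 10) varied least at low density, by 1.34 times between its lowest and highest library, with 90.5 TPM in LD, 91.6 with IL-6, 98.7 with IL-8, 73.6 in RM and 13.2 in HD. It shares 916 exonic bases with C10orf55 on the opposite strand in the GENCODE 29 annotation, the library kit does not mark strand, and reads of the 2 genes there cannot be told apart; C10orf55 itself was listed with 0 to 19 reads per library.

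The collagenase MMP1 (chromosome 11) and the gelatinase MMP9 (chromosome 20) were at or below the floor throughout. MMP1 was listed with 2 reads in LD (0.77 TPM) and with 0 in the other 4 libraries. MMP9 had 1 read in each of the IL-6 (0.45 TPM), RM (0.32 TPM) and HD (1.83 TPM) libraries, and 0 in LD and IL-8. No fold is given for either gene at this depth.

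The promoters of 2 members are shown. MMP14 was the protease with the largest difference in RM, and PLAUR held the one AP-1 match among the 6 members with a promoter entry. Each is the 250 bases before the start site in RefSeq on GRCh38.p14, read 5′ to 3′ on the gene's strand, at chr14:22836335-22836584 (plus strand) for MMP14 and chr19:43670170-43670419 (minus strand) for PLAUR. Capitals mark an AP-1 letter match and lower case marks all other bases.

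MMP14: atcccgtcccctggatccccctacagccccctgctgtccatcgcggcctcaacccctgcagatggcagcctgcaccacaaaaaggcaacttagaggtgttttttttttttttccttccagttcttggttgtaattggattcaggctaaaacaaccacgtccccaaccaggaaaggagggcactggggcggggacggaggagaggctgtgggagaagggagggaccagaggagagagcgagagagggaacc

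PLAUR: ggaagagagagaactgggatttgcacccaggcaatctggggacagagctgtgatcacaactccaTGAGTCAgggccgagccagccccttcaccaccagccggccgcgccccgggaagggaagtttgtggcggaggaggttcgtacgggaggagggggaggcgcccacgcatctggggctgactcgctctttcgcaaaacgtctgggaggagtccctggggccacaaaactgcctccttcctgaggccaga

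AP-1, a factor known for driving protease genes, was searched as TGAGTCA or TGACTCA, and the STAT motif, which factors downstream of IL-6 bind, as TTCNNNGAA, both on either strand of the 300 bases from 250 before to 50 after each start. Of the 10 members 6 had an entry, with 8 start sites in all. MMP1, MMP2, MMP9 and TIMP2 had no entry and were not searched. Among the 6, the AP-1 letters occurred in PLAUR alone, 186 bases before the start, and in 1738 of 35116 windows of all genes (4.95%). The STAT letters occurred in no window of these 6 members and in 2689 windows of all genes (7.66%). The match is a description of letters in these windows and carries no information on binding.

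Of the inhibitors, TIMP1 (chromosome X), a secreted inhibitor of most metalloproteinases but a weak one of MMP14, was at 305 TPM in LD, 374 with IL-6, 213 with IL-8, 326 in RM and 118 in HD, from 361, 305, 187, 372 and 24 reads. TIMP2 (chromosome 17) was at 104 TPM in LD, 103 with IL-6, 75.4 with IL-8, 44.0 in RM and 100.03 in HD, from 504, 345, 267, 208 and 81 reads. TIMP2 was the single member of the 8 whose HD level lay inside the range of the low-density libraries. TIMP3 (chromosome 22), which binds to the matrix and inhibits ADAM proteases as well, was at 5.93 TPM in LD, 9.19 with IL-6, 11.6 with IL-8, 4.66 in RM and 1.52 in HD, from 46, 49, 68, 35 and 2 reads. TIMP1 lies within SYN1 and TIMP3 within SYN3 on the opposite strand with no shared exon, and the 2 host genes had at most 7 reads in any library.

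Of the surface proteins, PLAUR (chromosome 19) was at 66.7 TPM in LD, 91.2 with IL-6, 51.6 with IL-8, 59.7 in RM and 22.7 in HD, from 139, 129, 80, 121 and 8 reads. BSG (chromosome 19) was at 366 TPM in LD, 273 with IL-6, 211 with IL-8, 359 in RM and 38.6 in HD, from 895, 445, 413, 828 and 17 reads. BSG was thus high in LD and RM, intermediate with either cytokine alone and low in HD. The order of levels changed with the condition. In IL-6 TIMP1 exceeded BSG without overlap of their intervals, in IL-8 the pair overlapped, and in RM BSG and TIMP1 stood above a run of MMP2, MMP14, PLAU, PLAUR and TIMP2 in which each gene overlapped the next. In HD every neighbour in the order from TIMP1 down to TIMP3 overlapped the next.

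To ask how each cytokine bore on these genes, the IL-6 and IL-8 libraries were compared with LD as differences of log2(TPM + 1), a scale that understates the change of low genes, with differences of 1 log2 unit or more counted. The filter of at least 1 TPM in at least 1 library left 21163 genes and 9 of the 10 members, MMP1 being left out and MMP9 passing through its single read in HD. All comparisons with LD share that library, and all those with RM share RM. With IL-6 alone no member differed by 1 log2 unit in either direction, where 9.84% of all genes were higher and 7.47% lower by that much. The values of the well-counted members lay between -0.42 for BSG and 0.56 for TIMP3, PLAUR was at 0.45, and PLAU and TIMP2 were within 0.02 of LD. On reads outside RNA5-8S5, BSG with IL-6 was 0.743 times its share in LD (0.662 to 0.834), PLAUR 1.39 times (1.08 to 1.78) and TIMP3 1.59 times (1.04 to 2.43). The difference of PLAUR turned to -0.25 when reads were drawn down to the depth of HD.

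With IL-8 alone again no member differed by 1 log2 unit, where 7.99% of all genes were higher and 16.4% lower. The difference of BSG was -0.79, with a read ratio of 0.678 (0.602 to 0.762), and that of TIMP1 was -0.51, with a read ratio of 0.761 (0.634 to 0.910). TIMP3 lay in the other direction at 0.87, with a read ratio of 2.17 (1.47 to 3.23), from 46 reads in LD and 68 with IL-8. TIMP3 passed 1 log2 unit where reads were scaled in another way, at 1.09 in CPM (reads per 1000000) without RNA5-8S5, 1.22 with TMM factors and 1.42 with median-ratio factors. In IL-8 MMP2 was at -0.18 and PLAU at 0.12, and the signs of MMP2, MMP14 and PLAUR turned with median-ratio scaling.

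With both cytokines, MMP14 and TIMP2, whose proteins meet in the MMP2-activating complex, were lower than in LD by more than 1 log2 unit on the TPM scale, and no member was higher. They were 2 of 9 members tested, where 20.4% of all genes were lower and 6.44% higher, so that the count of members was near the share over all genes. MMP14 differed by -1.45, with a read ratio of 0.403 (0.359 to 0.451), and 11.3% of all genes were lower by as much. TIMP2 differed by -1.22, with a read ratio of 0.473 (0.401 to 0.558), and 15.3% of genes were lower by as much. MMP2 differed by -0.70, with a read ratio of 0.668 (0.589 to 0.756). The other 5 well-counted members lay between -0.29 for PLAU and 0.10 for TIMP1, and the read ratios of BSG (1.06, 0.964 to 1.17) and PLAUR (0.999, 0.776 to 1.28) had intervals that included 1.

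The size of the RM differences, and for several members their sign, rested on how the libraries were put on one scale. Among the 7380 genes with a mean of at least 10 TPM the median difference was -0.38, 26.3% were lower by 1 log2 unit and 2 of 7 members were, MMP14 and TIMP2. With median-ratio factors MMP14 was at -0.71 and TIMP2 at -0.47, with TMM factors at -0.88 and -0.64, and neither then passed 1 log2 unit. On those 2 scales TIMP1 was at 0.84 and 0.66 and BSG at 0.69 and 0.51. MMP2 was at 0.02 with median-ratio factors and at -0.16 with TMM factors. PLAU, PLAUR and TIMP3, below 0 on the TPM scale, were at 0.42, 0.59 and 0.39 with median-ratio factors. Against IL-6 alone RM had 2 members lower, MMP14 at -1.24 (read ratio 0.453, 0.400 to 0.513) and TIMP2 at -1.21 (0.463, 0.388 to 0.551), where 22.7% of all genes were lower and 6.34% higher. In the same comparison BSG was at 0.39 on the TPM scale and past 1 log2 unit, at 1.17, with median-ratio factors. Against IL-8 alone RM had 2 members lower, MMP14 at -1.08 (0.479, 0.422 to 0.542) and TIMP3 at -1.16 (0.402, 0.260 to 0.613), where 14.9% of all genes were lower and 9.87% higher. BSG was at 0.76 and TIMP1 at 0.61 in that comparison.

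**Figure D2:**
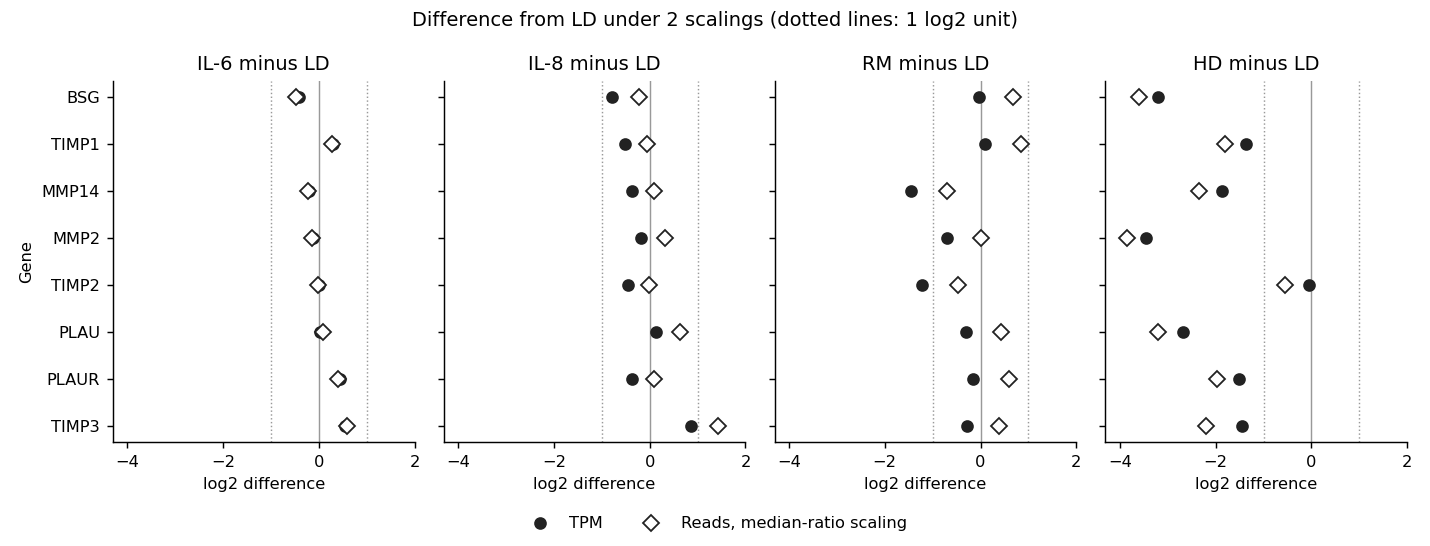
Differences of the 8 well-counted members from LD in log2 units, with 1 panel for each of IL-6, IL-8, RM and HD. Filled circles are log2(TPM + 1) differences, open diamonds are differences of reads scaled by median-ratio factors, and dotted lines mark 1 log2 unit. In RM the diamonds lie to the right of the circles for every member, and MMP14 and TIMP2 have the lowest values on both scales, while in HD the diamonds lie to the left and TIMP2 has the value nearest 0.

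Ratios between 2 genes of the same library do not depend on how libraries are scaled. The 3 given first all have MMP14 as their denominator, so they share its low level in RM and are not separate results. The TPM ratio of MMP2 to MMP14 was 0.657 in LD (0.597 to 0.722), 0.698 with IL-6, 0.754 with IL-8 and 1.11 in RM (0.965 to 1.28). The ratio of BSG to MMP14 was 1.56 in LD (1.42 to 1.70), 1.34 with IL-6, 1.17 with IL-8 and 4.21 in RM (3.74 to 4.75). PLAU to MMP14 went from 0.385 in LD (0.337 to 0.438) to 0.863 in RM (0.730 to 1.02). In all 3 ratios the RM interval lay above those of the other low-density libraries.

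TIMP2 kept close to MMP14 among the low-density libraries. Their ratio, TIMP2 over MMP14, was 0.440 in LD (0.395 to 0.489), 0.508 with IL-6 (0.445 to 0.579), 0.416 with IL-8 (0.360 to 0.480) and 0.516 in RM (0.434 to 0.611), and the LD and RM intervals overlapped. The inhibitors parted from each other instead, with TIMP1 over TIMP2 at 2.94 in LD (2.56 to 3.38), 3.62 with IL-6, 2.83 with IL-8 and 7.41 in RM (6.23 to 8.82). PLAUR over PLAU was 0.737 in LD (0.598 to 0.905), 0.996 with IL-6 (0.794 to 1.25), 0.523 with IL-8 (0.401 to 0.676) and 0.811 in RM (0.645 to 1.02). Among the low-density libraries the receptor was thus lowest relative to its ligand with IL-8 and highest with IL-6, without overlap between those 2 intervals.

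**Figure D3:**
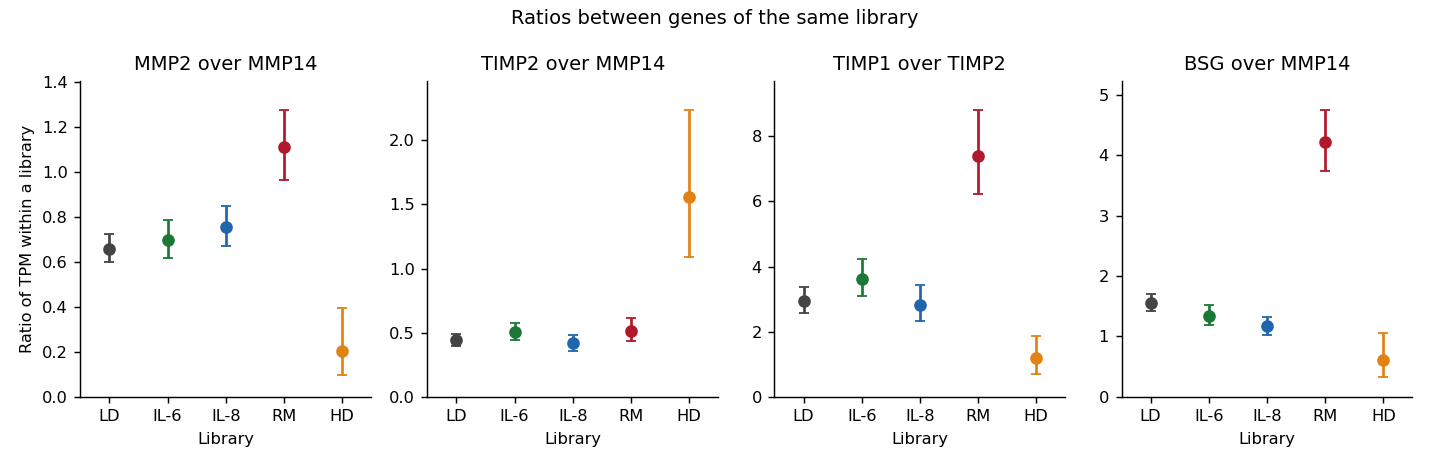
TPM ratios between 2 genes of the same library, for MMP2 over MMP14, TIMP2 over MMP14, TIMP1 over TIMP2 and BSG over MMP14, in each of the 5 libraries, with linear axes from 0. Bars are exact 95% intervals covering counting error only. RM has the highest ratio in 3 panels, and in the TIMP2 over MMP14 panel the 4 low-density libraries lie between 0.416 and 0.516 while HD is at 1.56.

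To ask how cell density bore on these genes, HD was compared with LD. Fewer HT1080 cells in the sampled RNA and less RNA of a gene per cell cannot be told apart in such bulk libraries. Of the 9 members tested 7 were lower by at least 1 log2 unit, where 17.9% of all genes were lower and 61.9% higher, and the median of all genes was 1.86. MMP9 was the 1 member counted as higher, on a single read, and TIMP2 was within 1 log2 unit. The shares and median over all genes include genes that reached 1 TPM in HD alone, which could be counted as higher but not as lower. Among genes with a mean of at least 10 TPM, 36.2% were lower and 39.3% higher, with a median of -0.05, and 6 of 7 members were lower. Among genes with at least 10 reads in each library, 29% were lower and 33.9% higher, with a median of 0.11, and 4 of 5 members were lower.

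The gelatinase, the basigin and the urokinase transcripts differed most. MMP2 went from 155 to 13.1 TPM, a difference of -3.46, with a read share 17.3-fold lower (9.60 to 34.8) on 11 reads. BSG went from 366 to 38.6 TPM, at -3.21, with a read share 14.4-fold lower (8.93 to 24.8) on 17 reads. PLAU went from 90.5 to 13.2 TPM, at -2.69, with a read share 11.4-fold lower (5.44 to 28.5) on 7 reads. These 3 were the members past 2 log2 units on the TPM scale.

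MMP14 differed by -1.86, with a read ratio of 0.169 (0.126 to 0.222), PLAUR by -1.51 (0.211, 0.089 to 0.427), TIMP3 by -1.46 (0.159, 0.019 to 0.608) and TIMP1 by -1.36 (0.243, 0.154 to 0.368). TIMP1 was at -0.94 in CPM over all genes, and TIMP3 was at -0.75 with a pseudocount of 5. Genes of high expression in HT1080 cells that are no part of the protease system, picked after their values were seen, lay in the same direction, with GAPDH at -1.41, ACTB at -2.26 and VIM at -3.15. TIMP2 was at -0.05 in TPM, yet its read ratio was 0.588 (0.459 to 0.745), and its difference ranged from 0.30 in CPM over all genes to -1.32 with TMM factors. Within HD, TIMP2 over MMP14 was 1.56 (1.09 to 2.24), above its range at low density, and MMP2 over MMP14 was 0.204 (0.096 to 0.395), below it.

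The HD levels of several members lay among those of genes not known to be used by these cells, while TIMP1, TIMP2 and MMP14 lay above the 95th percentile of the olfactory receptor genes, 39.1 TPM. In HD 22.0% of the 386 olfactory receptor genes (85 genes) were at or above MMP2, and likewise for PLAU, while 12.2% were at or above PLAUR and 5.18% at or above BSG. For MMP14 the share was 1.81%, for TIMP2 1.30% and for TIMP1 1.04%. TIMP3 and MMP9, on 2 reads and 1 read, were exceeded or matched by 61.4%. That is close to the 62.2% of receptor genes with any read in HD, so for TIMP3 and MMP9 the share says little beyond detection. In LD no olfactory receptor gene reached any of BSG, TIMP1, MMP14, MMP2, TIMP2, PLAU or PLAUR.

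**Figure D4:**
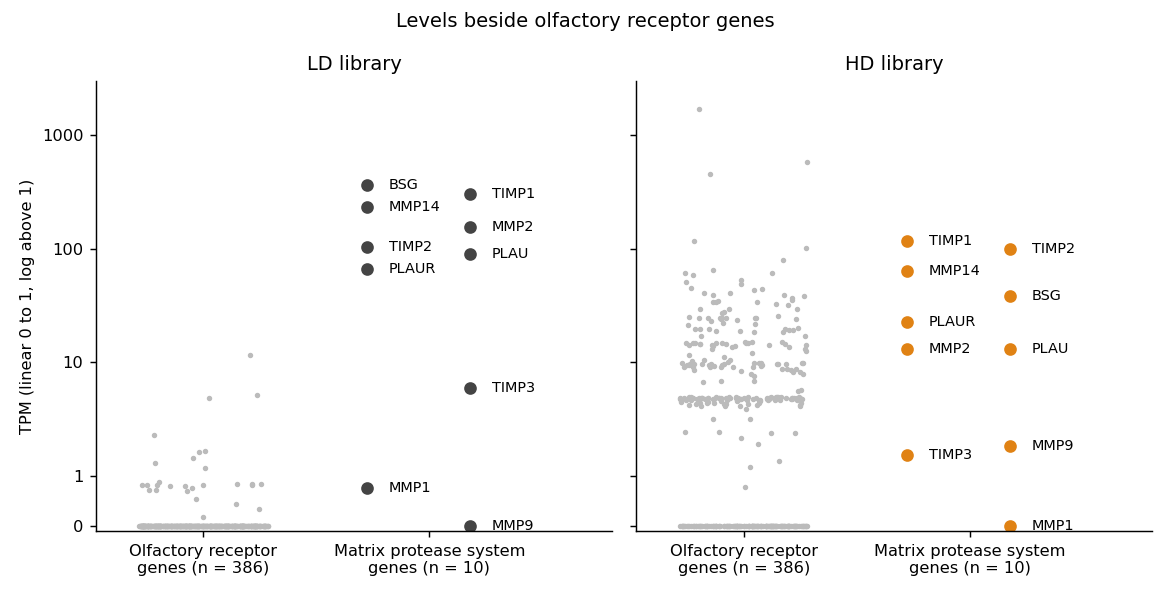
TPM of 386 olfactory receptor genes (grey points) and of the 10 members (named points) in the LD library and the HD library, on an axis that is linear from 0 to 1 and logarithmic above it; the sideways spread has no meaning. In LD the receptor genes reach at most 11.6 TPM and 7 members lie above all of them, whereas in HD 240 of the receptor genes have reads and the members lie within their range.

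The wider protease families held other genes that differed between the low-density libraries, at low counts. These genes were counted on the TPM scale only, and their counts under the other scalings were not computed. Their counts stand beside the shares over all genes given above, 9.84% higher and 7.47% lower with IL-6, 7.99% and 16.4% with IL-8, 6.44% and 20.4% with RM, and 61.9% and 17.9% in HD. Of 19 other matrix metalloproteinases 14 passed the filter. With IL-6, 3 were higher and none lower, with IL-8 1 was higher and 2 were lower, and with RM 1 was higher and 1 lower, the list's median difference being 0 in each as over all genes. MMP17, a glycosylphosphatidylinositol-anchored member, was at 4.44 TPM in LD (14 reads), 13.7 with IL-6 (30 reads), 25.1 with IL-8 (59 reads) and 8.50 in RM (26 reads), a difference of 2.26 between IL-8 and LD. MMP15, a transmembrane relative of MMP14, was at 3.04 TPM in LD, 4.42 with IL-6, 1.29 with IL-8 and 8.26 in RM, on 19, 19, 6 and 50 reads, so that it was highest in the library where MMP14 was lowest at low density. MMP3, stromelysin 1, had 11 reads in LD, 6 with IL-6, 1 with IL-8 and 0 in RM. MMP25 had 18 reads with IL-6 and 3 in LD. In HD MMP19 was the one gene of the list counted as different with at least 10 reads, 11 against 3 in LD, and the others counted as higher passed the filter or the threshold on fewer reads, some of them through HD alone, so no count over the list is given for that library.

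Of the other plasminogen system genes 6 were examined. PLAT, the tissue plasminogen activator that shares its substrate with PLAU, was at 2.71 TPM in LD, 1.52 with IL-6, 0.35 with IL-8 and 11.7 in RM, on 12, 4, 1 and 46 reads. It was thus high in RM, at 1.78 above LD with a read ratio of 4.40 (2.29 to 9.12). LRP1, an endocytic receptor that clears PLAU bound to its inhibitor, was at 8.50 TPM in LD and 24.5 with IL-6, with a read ratio of 2.03 (1.65 to 2.50). SERPINE2, an inhibitor of plasminogen activators and thrombin, was at 345 TPM in LD and 56.0 in HD, with a read ratio of 0.111 (0.076 to 0.158). Plasminogen itself (PLG) had 0 reads in LD and 10 in HD. Counting all 6, 2 were higher with IL-6 (LRP1 and PLGRKT), where 9.84% of all genes were. With IL-8 1 was lower, where 16.4% of all genes were, and with RM 1 was higher, where 6.44% were (PLAT in each). No count over the list is given for HD, because PLG and SERPINB2 passed the filter through HD alone. In TPM LRP1 was higher in HD than in LD, yet its read ratio between HD and LD was 1.04 (0.732 to 1.45).

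Of 12 ADAM and ADAMTS proteases 11 passed the filter. ADAM10, a sheddase inhibited by TIMP1 and TIMP3, was lower than in LD with each cytokine treatment, at 11.7 TPM in LD, 5.01 with IL-6, 4.14 with IL-8 and 1.96 in RM, on 59, 19, 14 and 10 reads. ADAM9 was lower in RM, at 1.86 against 5.90 TPM. Against LD, 1 of the 11 was higher and 2 lower with IL-6, and 1 was higher and 2 lower with IL-8. With RM 2 were lower than in LD, near the share over all genes. Against IL-6 alone RM had 6 of the 11 lower and 0 higher, where 22.7% of all genes were lower and 6.34% higher. Against IL-8 alone RM had 2 lower and 0 higher, where 14.9% of all genes were lower and 9.87% higher. No count over the list is given for HD, because ADAMTS4, ADAMTS5 and ADAMTS12 passed the filter through HD alone. Of the 3 other metalloproteinase inhibitors 2 passed, and RECK, a membrane-anchored inhibitor of MMP14, MMP2 and MMP9, was lower in RM, with 8 reads in LD and 0 in RM.

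Among the 4 proprotein convertases, which remove the propeptides of MMP14 and other proteases, FURIN was at 94.3 TPM in LD, 108 with IL-6, 141 with IL-8, 127 in RM and 14.1 in HD. PCSK7 was low with IL-8 alone at low density, at 28.3 TPM against 87.2 in LD, 137 with IL-6 and 131 in RM. PCSK5 was listed at 6752 TPM in HD on 4588 reads, beside 9.40 TPM and 40 reads in LD. The olfactory receptor gene OR10W1 was at 1710 TPM in the same HD library, and the source of the PCSK5 reads was not tested. The partners of BSG and genes of collagen uptake were 5 in all. Of these, the hyaluronan receptor CD44 was at 70.1 TPM in LD, 83.0 with IL-6, 39.2 with IL-8, 31.0 in RM and 11.7 in HD. CD44 was the one counted as lower in RM, where 20.4% of all genes were, with a read ratio of 0.491 (0.411 to 0.584). The lactate exporter SLC16A3, a transporter that BSG chaperones, was at 232 TPM in LD, 149 with IL-6, 323 with IL-8, 149 in RM and 14.9 in HD. Its levels thus did not follow those of BSG across the low-density libraries, where BSG was highest in LD and RM. In HD 4 of the 5 were lower (SLC16A3, PPIA, CD44 and MRC2), where 17.9% of all genes and 36.2% of those with a mean of at least 10 TPM were, and SLC16A1 was higher, at 60.9 against 14.6 TPM.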

How the data were processed

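RNA from HT1080 cells in collagen was primed on poly-A, copied with SuperScript III, amplified as a whole pool with phi29 polymerase, tagmented with Nextera XT, a kit that does not mark strand, and sequenced by the authors. The submitters' processing notes name CASAVA 1.4, Bowtie, Bowtie2 2.3.1, RSEM 1.2.25, FastQC, GRCh37 and hg19, and the annotation and settings are not given in the sources used here. The authors deposited, for each library, whole-number read counts without normalization and TPM values corrected for transcript length and library total.

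TPM was rescaled to 1000000 per library, and log2(TPM + 1) was compared over genes that reached 1 TPM in any library. A difference of 1 log2 unit was counted. Groups came from the sample titles, with 1 library per condition. Shares and ratios of reads outside RNA5-8S5 have exact 95% (Clopper-Pearson) intervals, and total counts per library limit their precision. The members and gene lists were chosen with earlier results of these data known. Besides the members, each list's named genes were taken from those past 1 log2 unit with at least 10 reads in 1 of the libraries compared, at most 3 per comparison. Not every gene that met this rule is named, among them MMP16, ADAM8, ADAM19 and PCSK6. A few further genes of those lists were named after their values were seen, to give the levels of all partners. Alternatives were other pseudocounts, scalings, filters and a threshold of 2 log2 units. A filter on mean TPM of at least 10 and median-ratio factors over the 4 low-density libraries were added after the data had been seen. Calls were tested on simulated data drawn from the LD profile with counting error alone, with changes placed on genes well counted in LD. That test does not cover background reads, amplification or the scaling between libraries, nor genes of low count. One listed gene of the plasminogen system was not analysed here. One listed cell type marker is not reported here. Gene overlaps are from GENCODE 29 on GRCh38, and promoters are from RefSeq on GRCh38.p14, a build other than the one of the files, so no coordinates were transferred. TMM factors came from edgeR 4.0.16 in R 4.3.3, and the rest was computed in Python 3.11.15 with scipy 1.17.1, pandas 2.3.3 and numpy 2.4.6.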

Additional observations from a re-analysis of the deposited data

How the results depend on the processing

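No paired analysis was possible because each condition has 1 library, and for the same reason no replicate could be left out. Of the counts of members past 1 log2 unit, 53 values under alternatives stayed within 1.5 times the reported count and 24 did not. No difference counted on the TPM scale changed sign, while several smaller differences did, as given beside them. For HD against LD the count of 8 became 4 with at least 10 reads in each library, a filter that keeps 5 members, and 3 at a threshold of 2 log2 units. It was 7 in CPM over all genes, where TIMP1 was lost, and 6 with a pseudocount of 5, where TIMP3 and MMP9 were lost, and TMM factors kept 8 with TIMP2 (-1.32) in place of MMP9. For IL-6 against LD the count of 0 became 1 (MMP9, on 1 read) with a pseudocount of 0.1. For IL-8 against LD the count of 0 became 1 (TIMP3) in CPM without RNA5-8S5, with median-ratio factors over all 5 or over the 4 low-density libraries, with TMM factors and after drawing reads down to the shallowest library. For RM against LD the count of 2 became 0 with both kinds of median-ratio factors, with TMM factors and at a threshold of 2 log2 units. For RM against IL-6 the count of 2 became 1 (BSG, higher) with both kinds of median-ratio factors and with TMM factors, and 0 at a threshold of 2. For RM against IL-8 the count of 2 became 1 with a pseudocount of 5, at least 10 reads in each library or a mean TPM of at least 10 (MMP14 in each), 1 with both kinds of median-ratio factors, TMM factors or drawn-down reads (TIMP3 in each), and 0 at a threshold of 2. The cause of these moves was not tested. Depth limits MMP1, MMP9 and, in HD, TIMP3, PLAU and PLAUR, each of which has fewer than 10 reads there.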
